A study of Mus musculus with 32 samples.

Results

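Messenger RNA was sequenced from cortical neuron cultures that had been left untreated or exposed to the synthetic oligoribonucleotide miR-124-5p for 5 d, with 4 libraries per group. These 8 libraries are those that the deposited labels name miR-124-5p and untreated at 5 d, out of 32 in the series. All groups came from wild-type C57BL/6 mice of embryonic day 17 to 18, and forebrain cortices were dissociated and kept in Neurobasal medium with B27 supplement. The exposed cultures received 10 µg/mL of miR-124-5p in the medium, and the untreated cultures received none. The other libraries of 5 d, used below for comparison, are 4 of Mut.oligo (a mutated let-7b sequence that serves as a sequence control) and 4 of miR-92a-1-5p, a second miRNA. A culture of this kind is a mixture, in which glial precursors and other dividing cells remain beside the neurons. The sex of the embryos and the number of embryos per culture are not given in the sources used here.

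The libraries held 43549804 to 60518243 counted reads, with a median of 55335535 in the untreated group and 44739610.5 in the miR-124-5p group. Levels are given as CPM, reads divided by the library total. A count of 3 equals 0.0496 to 0.0689 CPM, and this floor accounts for counting error alone. Each label names an experiment batch. Untreated replicates 1 to 4 came from batches 3, 9, 11 and 12, and miR-124-5p replicates 1 to 4 from batches 2, 3, 10 and 12, so that only batches 3 and 12 hold both groups. Replicate 1 of miR-124-5p stood apart from its group, with a chi-square per degree of freedom of 93.7 to 110 against the other 3 libraries, which differed among themselves by 11.1 to 27.0. The pairs of untreated libraries differed by 23.8 to 97.7, the most between replicates 2 and 3. Replicate 1 of miR-124-5p came from batch 2, which at 5 d holds only this library and replicate 1 of miR-92a-1-5p, and no untreated library. Its distance from the group and its batch therefore cannot be told apart. The neuronal markers Map2 and Tubb3 were abundant in both groups, at 2170.9 ± 148 and 1212.3 ± 387 CPM in untreated and 2240.1 ± 363 and 1199 ± 179 CPM in miR-124-5p cultures (SD, n = 4). The labels call the replicates biological. Unless stated otherwise, the fits at 5 d held all 16 libraries of that time. Their p-values therefore rest on a spread that comes also from the Mut.oligo and miR-92a-1-5p libraries. With the batch as a covariate, these libraries also enter the fold changes against untreated. Batches 2, 9 and 10 hold miR-124-5p or untreated libraries but not both. They are linked to the other group only through Mut.oligo or miR-92a-1-5p libraries, and only batches 3 and 12 compare the groups directly.

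The names of the groups need a reservation. The authors listed names of deregulated genes by exposure at 5 d. With the batch covariate in DESeq2, the genes past the threshold in the libraries labelled miR-124-5p held 9 of the 9 names listed for all 3 oligoribonucleotides and 8 of the 8 names listed for Mut.oligo together with miR-92a-1-5p. They held 0 of the 9 names listed for miR-124-5p together with miR-92a-1-5p. The libraries labelled Mut.oligo gave the opposite, with 9 of 9, 0 of 8 and 9 of 9. Whether the names were exchanged in the count table or in the listing was not settled here, so the groups are called by the labels of their libraries. Mut.oligo values are given below for Pdgfra, Kdr, Pclaf, Tagln, Olig2, Sox10, Spp1, the authors' list, and the mitotic and oligodendrocyte lineage genes.

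Extracellular miRNAs can act as ligands of the single-stranded RNA sensors Toll-like receptor (TLR) 7 and TLR8 in endosomes, apart from their role in silencing messenger RNAs inside the cell. Neurons have left the cell cycle, so transcripts of mitosis and DNA replication in a cortical culture come mainly from dividing precursors, among them oligodendrocyte precursor cells and astrocyte precursors. Oligodendrocyte precursors carry the receptor for platelet-derived growth factor alpha, divide in response to its ligands, and later mature into myelin-forming cells.

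The comparison asks which transcripts differ after 5 d of exposure. Of 19333 genes tested, 0 genes (0.0%) passed as lower and 0 (0.0%) as higher in the fit without a covariate, where a gene passed if its adjusted p was under 0.05 and its log2 fold change beyond 0.5 in either direction (edgeR, quasi-likelihood test, Benjamini-Hochberg). Of these genes, 293 (1.52%) were lower and 210 (1.09%) higher at an unadjusted p under 0.05. DESeq2 without a covariate also called 0 genes in either direction. With the batch as a covariate, 5 genes passed as lower (0.0259%) and 0 as higher (0.0%), and 637 (3.29%) and 290 (1.5%) genes had an unadjusted p under 0.05. The 5 genes were Pdgfra, Kdr, Pclaf, Tagln and Olig2. DESeq2 with the same covariate called 16 lower genes (0.0828%), namely these 5 with Ccna2, Kif22, Cdc20, Sox10, Cenpa, Aurkb, Melk, Kif23, Dlgap5, Uhrf1 and Top2a, and 1 higher gene (0.00517%), Spp1. Fitting only the 5 d libraries of batches 3 and 12, with those of Mut.oligo and miR-92a-1-5p included and the batch as a covariate, left Pdgfra, Pclaf and Kdr. The count of lower genes in edgeR with the batch was 0 without untreated replicate 1, 1 without untreated replicate 4 or miR-124-5p replicate 2, 2 without miR-124-5p replicate 4, 3 without untreated replicate 2 or miR-124-5p replicate 3, and 4 without untreated replicate 3. Without miR-124-5p replicate 1 it was 21, beside 1 higher gene. Of the 5, Olig2 passed in these repeats only without miR-124-5p replicate 1, and Tagln only without that library or untreated replicate 3. Untreated replicate 3 is the only library of batch 11 at 5 d, so its own batch term takes it up. Leaving it out could not change the fold changes with the batch, and that repeat is no test of them.

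**Figure D1:**
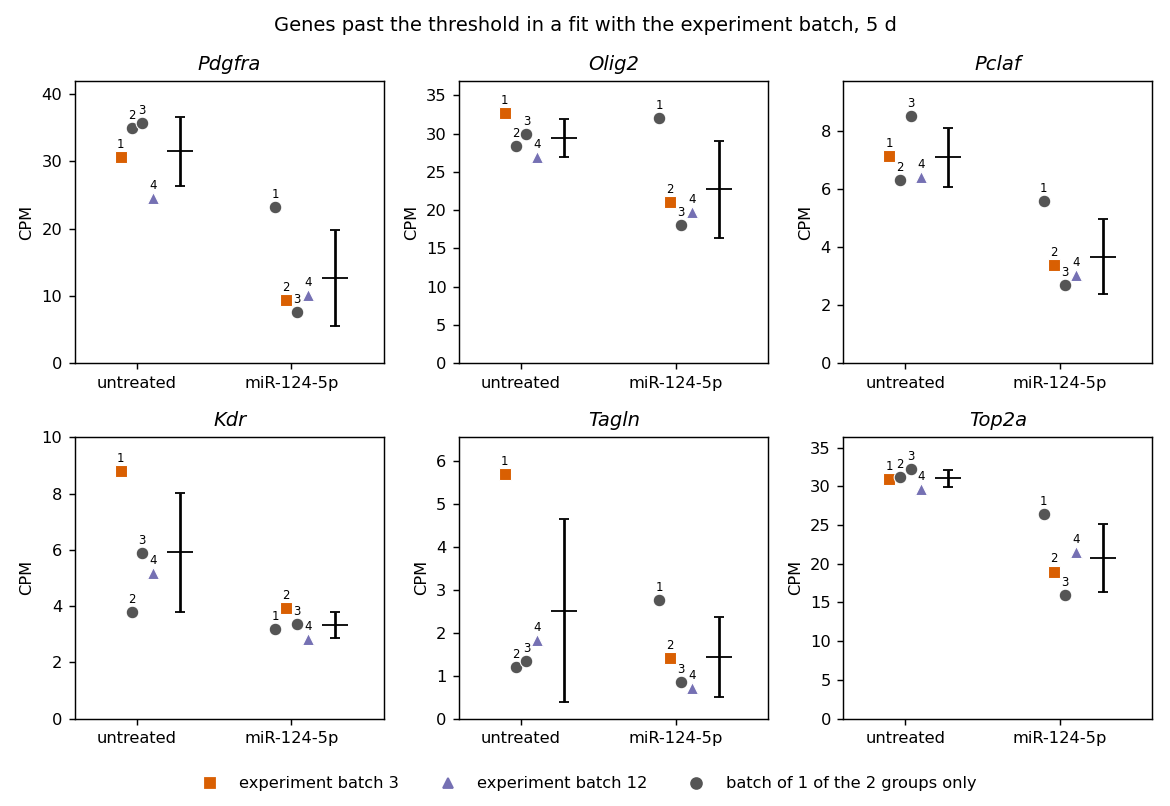
Levels of 6 genes in CPM (y axis) in each of the 4 untreated and 4 miR-124-5p libraries of 5 d, with the replicate number beside each point, the experiment batch as colour and shape, and the mean and SD of each group beside the points. With all libraries, Top2a passed in DESeq2 with the batch and not in edgeR. In Pdgfra, Olig2 and Pclaf, replicate 1 of miR-124-5p lies above the other 3 libraries of its group, and within batches 3 and 12 the miR-124-5p library is the lower one in all 6 genes.

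Apart from the list of the authors' own genes, genes of mitosis had the lowest median of all gene lists in both fits. Of 61 mitotic genes tested, 60 had a log2 fold change below 0 without a covariate and 61 with the batch, where 49.0% and 50.1% of all genes did. Their median log2 fold change was −0.48 in both fits, against a median of 0.0 over all genes tested. Of all genes, 1.52% and 3.29% were lower at an unadjusted p under 0.05. Among the mitotic genes, 44 of the 61 were lower without and 53 with the covariate, and 0 were higher in either. In 24 of them the 4 miR-124-5p libraries all lay below the 4 untreated ones, as in 0.879% of all genes. The miR-124-5p library was the lower one in both shared batches for 57 of the 61, as it was for 35.2% of all genes. Without replicate 1 of miR-124-5p, an alternative chosen after seeing the data, the median was −0.59 without a covariate and −0.42 with the batch. In DESeq2 with the batch, 9 mitotic genes passed.

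The sum of 16 mitotic markers gives the level of the group in each library. It was 123 to 132 CPM in the 4 untreated libraries, and 113, 74.1, 68.0 and 86.0 CPM in miR-124-5p replicates 1 to 4. The groups do not overlap, and replicate 1 of miR-124-5p lies nearest to the untreated libraries. The Mut.oligo libraries held 66.4 to 94.3 CPM and the miR-92a-1-5p libraries 51.1 to 110 CPM. In these bulk samples, fewer dividing cells and less RNA of these genes per cell cannot be told apart.

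**Figure D2:**
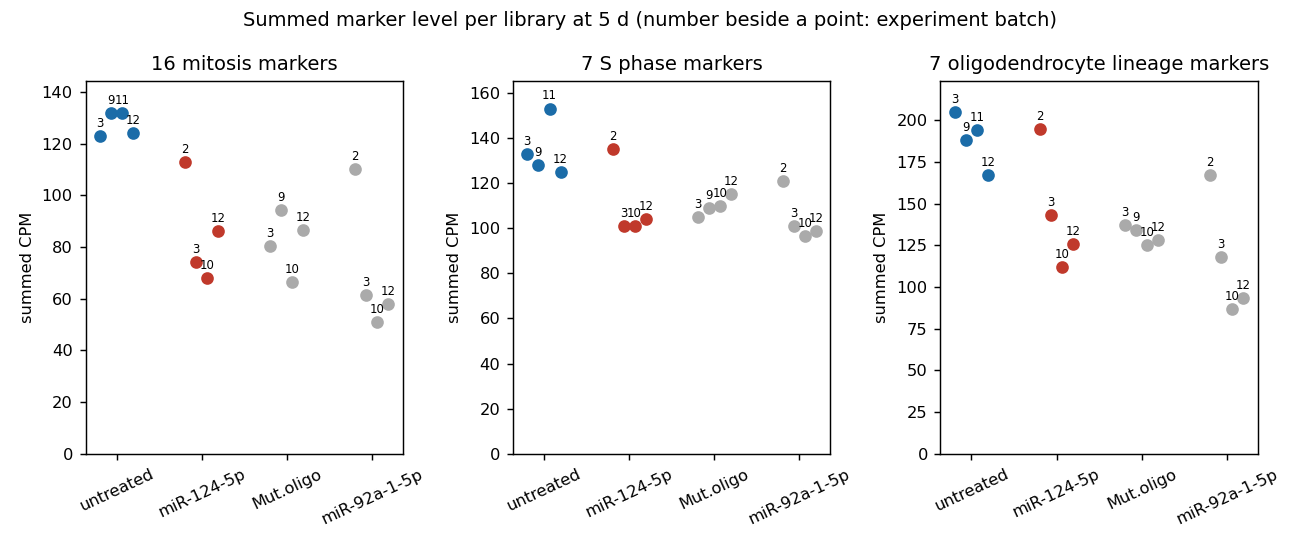
Summed CPM (y axis) of 16 mitosis, 7 S phase and 7 oligodendrocyte lineage markers in each library of 5 d, by group (x axis), with the number of the experiment batch beside each point. The untreated libraries hold 123 to 132 CPM of mitosis markers, above all 4 miR-124-5p libraries, and in both miRNA groups the library of batch 2 is the highest of its group in the 3 panels.

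Among the chromosome and spindle genes, Kif22, a chromosome-binding kinesin on chromosome 7 (127027729 to 127042471, GRCm38, minus strand), had 4.12, 4.61, 5.36 and 4.35 CPM in untreated and 4.18, 1.90, 1.79 and 2.11 CPM in miR-124-5p libraries. Replicate 1 of miR-124-5p lay within the untreated range and the other 3 libraries below it. Kif22 fell by 0.95 on the log2 scale in DESeq2 with the batch (adjusted p = 0.000396 with Benjamini-Hochberg adjustment). It was the single gene past the threshold in edgeR without a covariate once miR-124-5p replicate 1 was left out, at a log2 fold change of −1.21. Kif23, a kinesin of the central spindle needed for cytokinesis, had 4.16 to 4.54 CPM in untreated and 4.09, 2.65, 2.62 and 2.82 CPM in miR-124-5p libraries. All 4 exposed libraries lay below the untreated ones, replicate 1 only narrowly. Its log2 fold change was −0.66 in DESeq2 with the batch (adjusted p = 0.00979, Benjamini-Hochberg).

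Top2a encodes the topoisomerase that untangles sister chromatids. Its level was 30.9, 31.2, 32.3 and 29.7 CPM in untreated and 26.4, 19, 16 and 21.5 CPM in miR-124-5p libraries, and the groups did not overlap. The log2 fold change was −0.58 (standard error 0.208) without and −0.57 (standard error 0.12) with the batch in edgeR, and with all libraries it passed in DESeq2 with the batch (adjusted p = 0.0134, Benjamini-Hochberg) and not in edgeR. Without miR-124-5p replicate 1, Top2a, Uhrf1, Sox10 and Acta2 passed in edgeR with the batch. Reads of Top2a could be shared with the annotated gene Gm23451, which overlaps it. Ccna2, the cyclin of S phase and G2, had 12.3, 13.7, 15.8 and 10.8 CPM in untreated and 12.9, 6.15, 6.75 and 7.77 CPM in miR-124-5p libraries. Replicate 1 of miR-124-5p overlapped the untreated range. Ccna2 fell by 0.68 in DESeq2 with the batch on the log2 scale (adjusted p = 9.25e-05, Benjamini-Hochberg).

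The remaining mitotic genes past the threshold in DESeq2 with the batch were present at low levels. Cdc20, the activator of the anaphase-promoting complex, had 4.84 ± 0.464 CPM in untreated and 3.25 ± 1.31 CPM in miR-124-5p libraries (SD, n = 4). Aurkb, the kinase of the chromosomal passenger complex, had 2.91 ± 0.193 and 1.79 ± 0.773 CPM, and Cenpa, the histone H3 variant of centromeres, 3.88 ± 0.292 and 2.63 ± 0.789 CPM. In these 3 genes, replicate 1 of miR-124-5p lay within the untreated range, and the other 3 libraries lay below it. Melk, a mitotic kinase, had 2.74 ± 0.259 and 1.65 ± 0.553 CPM, and Dlgap5, a microtubule-binding spindle protein, 2.67 ± 0.318 and 1.47 ± 0.419 CPM. The log2 fold changes of the 5 genes in DESeq2 with the batch lay between −0.96 for Melk and −0.80 for Cenpa and Cdc20, and in edgeR with the batch their adjusted p ranged from 0.0754 to 0.114 (Benjamini-Hochberg).

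Other regulators of mitosis, Foxm1 and Ccnb1, did not pass in any of these fits. Foxm1, the transcription factor of late cell cycle genes, had 8.62 ± 0.504 CPM in untreated and 6.19 ± 1.18 CPM in miR-124-5p libraries (SD, n = 4), and its groups did not overlap. Ccnb1, the cyclin of mitotic entry, had 5.08, 6.36, 5.96 and 4.76 CPM in untreated and 4.29, 3.04, 2.59 and 3.54 CPM in miR-124-5p libraries, and its log2 fold change was −0.71 (standard error 0.206) without and −0.67 (standard error 0.154) with the batch. Mki67, the proliferation antigen, had 25.2 ± 1.93 and 16.6 ± 3.11 CPM.

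Promoters of many mitotic genes carry a cell cycle genes homology region (CHR), which is bound by complexes that repress them in resting cells. RefSeq windows of GRCm38.p6, from 250 bases before to 50 bases after a start, were searched on both strands. The letters TTTGAA of the CHR were found in 36 of the 50 mitotic genes with a window (72.0%), in 14.8% of the tested genes with a window and in 20.2% of all 27025 genes with a window. CCAAT was found in 37 of the 50 (74.0%) and in 41.1% of all genes. The E2F letters TTTGGCG were found in 3 of the 50 (6.0%), in 2.66% of the tested genes with a window and in 1.77% of all genes. A match to these letters is a description of the window and not a bound site. Of the mitotic genes past the threshold, Melk had a window without TTTGAA, and Ccna2, Aurkb and Dlgap5 had no window. The stretches of 30 bases around the match nearest to the start are shown for the mitotic genes past the threshold that held one. Each is written 5′ to 3′ on the strand of the gene with the match in capitals, where TTCAAA is TTTGAA read on the other strand.
Kif23, chr9:61946780-61946809, minus strand: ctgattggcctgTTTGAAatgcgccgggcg
Kif22, chr7:127042420-127042449, minus strand: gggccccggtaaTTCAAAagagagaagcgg
Cdc20, chr4:118437344-118437373, minus strand: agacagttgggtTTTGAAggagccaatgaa
Cenpa, chr5:30666890-30666919, plus strand: ggcgggtgatttTTTGAActgctggcgacc
Top2a, chr11:99024195-99024224, minus strand: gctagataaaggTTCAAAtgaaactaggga

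Genes of S phase and DNA replication were lower less uniformly. Of 40 such genes, 29 had a log2 fold change below 0 without a covariate and 34 with the batch, with medians of −0.18 and −0.17. At an unadjusted p under 0.05, 11 and 18 of the 40 were lower and 0 higher, where 1.52% and 3.29% of all genes were lower. In both shared batches, where 35.2% of all genes were lower, 32 of these 40 genes were lower. Their windows held TTTGAA in 5 of 31 genes (16.1%), CCAAT in 21 of 31 (67.7%) and TTTGGCG in 8 of 31 (25.8%), against 1.77% of all genes for TTTGGCG. The sum of 7 S phase markers was 133, 128, 153 and 125 CPM in untreated and 135, 101, 101 and 104 CPM in miR-124-5p libraries, so that replicate 1 of miR-124-5p lay among the untreated libraries.

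Pclaf, the PCNA-associated factor, is the S phase gene that passed in edgeR with the batch (chromosome 9, 65890237 to 65903266, GRCm38, plus strand). It had 7.14, 6.32, 8.54 and 6.41 CPM in untreated and 5.58, 3.38, 2.69 and 3.04 CPM in miR-124-5p libraries, and the groups did not overlap. The log2 fold change was −0.95 (standard error 0.237) without and −1.04 (standard error 0.118) with the batch, where its adjusted p was 0.00673 (edgeR, quasi-likelihood test, Benjamini-Hochberg). Within batches 3 and 12 the differences were −1.08 and −1.07 on the log2 scale. Uhrf1, which directs maintenance DNA methylation at replication, had 9.08 ± 0.685 and 6.27 ± 2.38 CPM (SD, n = 4) and passed with all libraries in DESeq2 with the batch and not in edgeR, at a log2 fold change of −0.64 (adjusted p = 0.0106, Benjamini-Hochberg). Rrm2, the small subunit of ribonucleotide reductase, had 24.3 to 28.4 CPM in untreated and 17.4 to 20.2 CPM in miR-124-5p libraries without overlap, and did not pass. Pcna itself had 49.9 ± 3.79 and 45.8 ± 3.32 CPM.

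Of 20 cyclins, cyclin-dependent kinases and inhibitors of G1, 16 had a log2 fold change below 0 without a covariate and 15 with the batch, with medians of −0.11 and −0.18. Ccnd1, the cyclin D1 that links growth factors to the cell cycle, had 40.0, 38.1, 41.3 and 36.8 CPM in untreated and 33.2, 27.3, 25.2 and 29.8 CPM in miR-124-5p libraries. The groups did not overlap. Its log2 fold change was −0.43 (standard error 0.0934) without and −0.45 (standard error 0.077) with the batch, which is inside the limit of 0.5, and its adjusted p in DESeq2 with the batch was 0.000938 (Benjamini-Hochberg). Cdk6, a partner kinase of the D cyclins, had 9.90 ± 1.40 and 7.35 ± 1.63 CPM (SD, n = 4), and Cdkn1a, the inhibitor p21, 74.2 ± 5.85 and 78.0 ± 6.48 CPM.

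**Figure D3:**
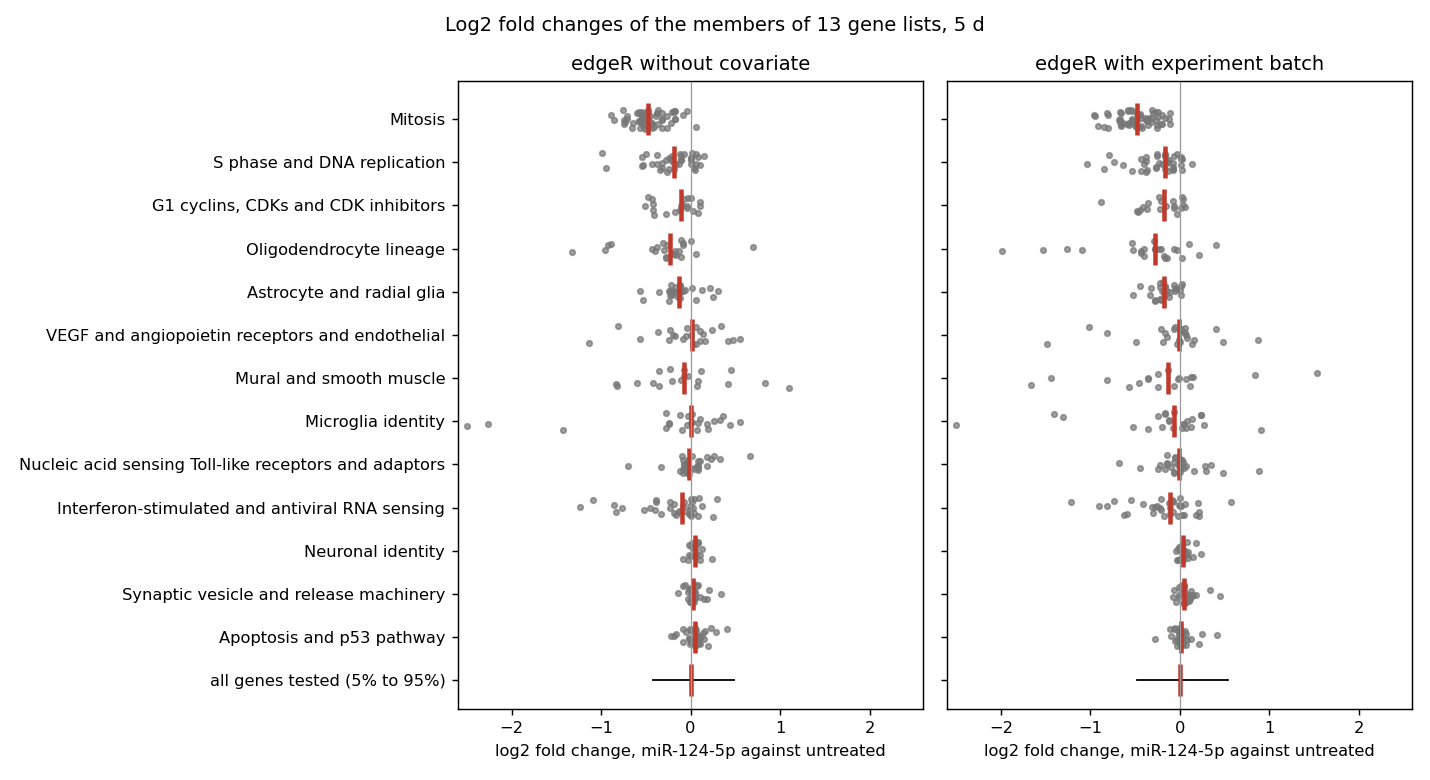
Log2 fold changes of miR-124-5p against untreated at 5 d (x axis) for each tested member (points) of 13 gene lists (y axis), without a covariate (left) and with the experiment batch (right). Red bars are medians, and the black line spans the middle 90% of all genes tested. Mitosis lies lowest, with a median of −0.48 in both fits, and the neuronal and synaptic lists lie close to 0.

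Of 24 oligodendrocyte lineage genes tested, 21 had a log2 fold change below 0 without a covariate and 20 with the batch, with medians of −0.24 and −0.28. At an unadjusted p under 0.05, 4 and 10 of them were lower, and 0 higher, where 1.52% and 3.29% of all genes were lower. The sum of the 7 defining markers was 167 to 205 CPM in untreated libraries. It was 195 CPM in replicate 1 of miR-124-5p, inside that range, and 112 to 143 CPM in replicates 2 to 4, below it.

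Pdgfra, the receptor that defines oligodendrocyte precursors, had the smallest p of all genes in the fit with the batch (chromosome 5, 75152292 to 75198215, GRCm38, plus strand). Its level was 30.7, 35.0, 35.7 and 24.6 CPM in untreated and 23.2, 9.45, 7.62 and 10.2 CPM in miR-124-5p libraries. The groups did not overlap, although replicate 1 of miR-124-5p lay just below untreated replicate 4 and far above the other exposed libraries. Replicate 1 of miR-92a-1-5p, also of batch 2, had 31.2 CPM, and the rest of its group 6.81 to 8.15 CPM. With the covariate, a level that these libraries of batch 2 share counts as a batch term, which no untreated library can check. Without a covariate Pdgfra had a log2 fold change of −1.33 (adjusted p = 1.00, standard error 0.415), and with the batch −1.53 (standard error 0.147, adjusted p = 0.0029) (edgeR, quasi-likelihood test, Benjamini-Hochberg). Within batch 3 the difference was −1.70 and within batch 12 −1.26 on the log2 scale. Its reads could be shared with the annotated microRNA gene Mir7025, which overlaps it. Per kilobase of exon, the mean level of Pdgfra was 3.14 CPM in untreated and 1.26 CPM in miR-124-5p cultures.

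Olig2 and Sox10 are transcription factors of the lineage. Olig2 (chromosome 16, 91225457 to 91228677, GRCm38, plus strand) had 32.7, 28.4, 29.9 and 26.9 CPM in untreated and 32, 21, 18.1 and 19.7 CPM in miR-124-5p libraries. Replicate 1 of miR-124-5p overlapped the untreated range and the other 3 lay below it. The log2 fold change was −0.38 (standard error 0.171) without and −0.53 (standard error 0.0757) with the batch, where its adjusted p was 0.0474 (edgeR with Benjamini-Hochberg adjustment). Sox10 had 3.36, 2.96, 4.07 and 2.16 CPM in untreated and 3.29, 1.07, 1.35 and 1.08 CPM in miR-124-5p libraries, again with replicate 1 among the untreated ones. Replicate 1 of miR-92a-1-5p, also of batch 2, had 3.89 CPM, and the rest of its group 0.757 to 1.14 CPM. Sox10 passed with all libraries in DESeq2 with the batch and not in edgeR, at a log2 fold change of −1.23 (adjusted p = 0.00294, Benjamini-Hochberg). Olig1, the paralog of Olig2, had 85.7 ± 8.83 and 69.8 ± 17.3 CPM (SD, n = 4) and a log2 fold change of −0.43 with the batch, inside the limit. Cspg4, the NG2 proteoglycan of precursors, had 8.25, 7.54, 8.74 and 7.09 CPM in untreated and 10.6, 6.51, 3.63 and 4.84 CPM in miR-124-5p libraries and did not pass. The myelin gene Mbp had 22.3 ± 1.38 and 23.1 ± 2.09 CPM, a difference smaller than the spread between replicates.

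**Figure D4:**
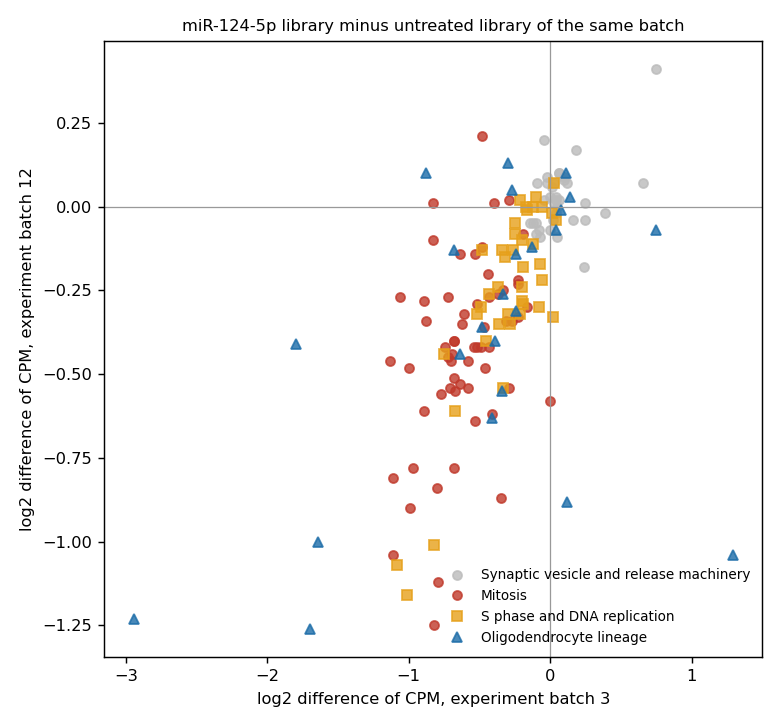
Log2 difference of CPM between the miR-124-5p and the untreated library of experiment batch 3 (x axis) and of batch 12 (y axis) for the members of 4 gene lists, with no test. Of the 61 mitosis genes, 57 lie below 0 in both batches, and the synaptic vesicle genes lie around 0.

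Most astrocyte and radial glia genes lay below 0 by smaller amounts. Of 28 tested, 22 had a log2 fold change below 0 without a covariate and 24 with the batch, with medians of −0.13 and −0.18. At an unadjusted p under 0.05, 3 and 15 of them were lower, against 1.52% and 3.29% of all genes. No member passed the threshold with all libraries, and Hes5 passed as lower in edgeR with the batch when miR-124-5p replicate 1 was left out. Fabp7, the fatty acid binding protein of radial glia, had 697, 731, 760.0 and 728 CPM in untreated and 684, 591, 619 and 639 CPM in miR-124-5p libraries without overlap. Glul, the glutamine synthetase of astrocytes, had 435 ± 54.6 and 367 ± 7.06 CPM (SD, n = 4). Gfap, the intermediate filament of astrocytes, had 233 ± 204 and 271 ± 202 CPM, so that its spread within each group was nearly as large as its level.

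Kdr, the receptor 2 for vascular endothelial growth factor, was the single endothelial list member past the threshold (chromosome 5, 75932827 to 75978458, GRCm38, minus strand). It had 8.82, 3.78, 5.90 and 5.17 CPM in untreated and 3.18, 3.94, 3.38 and 2.82 CPM in miR-124-5p libraries, and untreated replicate 2 fell inside the exposed range. The log2 fold change was −0.81 (standard error 0.225) without and −1.01 (standard error 0.114) with the batch, where its adjusted p was 0.00673 (edgeR with Benjamini-Hochberg adjustment). The defining endothelial markers Cldn5, Tek and Cdh5 had means of 0.0481, 0.113 and 0.265 CPM in untreated and 0.0227, 0.165 and 0.358 CPM in miR-124-5p cultures. Flt1 had means of 0.18 and 0.21 CPM, and Pecam1 was higher at 1.33 and 1.41 CPM. With Kdr, the 6 markers summed to 5.67 to 11.2 CPM in untreated and 4.8 to 6.39 CPM in miR-124-5p libraries, so that their RNA was low in either group. Over 24 endothelial genes, the median log2 fold change was 0.02 without a covariate and 0.0 with the batch, and 12 of 24 were below 0 with the batch.

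Tagln, transgelin of smooth muscle and mural cells, had 5.70, 1.21, 1.33 and 1.82 CPM in untreated and 2.77, 1.41, 0.850 and 0.704 CPM in miR-124-5p libraries (chromosome 9, 45929619 to 45936058, GRCm38, minus strand). The groups overlapped, and both batch 3 libraries lay above their batch 12 counterparts. The log2 fold change was −0.83 (standard error 0.599) without and −1.66 (standard error 0.231) with the batch, where its adjusted p was 0.0422 (edgeR with Benjamini-Hochberg adjustment), and its differences within batches 3 and 12 were −2.01 and −1.35. Without a covariate, the log2 fold change of Tagln was −0.04 when untreated replicate 1 was left out. Acta2, the smooth muscle actin, had 3.48, 0.925, 0.879 and 1.07 CPM in untreated and 2.43, 0.782, 0.574 and 0.506 CPM in miR-124-5p libraries. It did not pass with all libraries, and passed in edgeR with the batch when miR-124-5p replicate 1 was left out. Its log2 fold change of −0.60 without a covariate turned to 0.13 when untreated replicate 1 was left out. Of 19 mural genes tested, 12 lay below 0 without a covariate and 13 with the batch, with medians of −0.07 and −0.13.

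Spp1, osteopontin, was the only gene past the threshold as higher with all libraries, in DESeq2 with the batch (log2 fold change 0.68, adjusted p = 0.000396 with Benjamini-Hochberg adjustment). It had 10.3, 3.28, 3.48 and 6.43 CPM in untreated and 3.52, 16.8, 12.1 and 10.8 CPM in miR-124-5p libraries (chromosome 5, 104435118 to 104441050, GRCm38, plus strand). The groups overlapped, with replicate 1 of miR-124-5p at the level of untreated replicates 2 and 3 and the other 3 above every untreated library. Without a covariate its log2 fold change was 0.90 (standard error 0.498), and within batches 3 and 12 the differences were 0.70 and 0.74. The annotated gene Gm42793 overlaps it. Of the same list, Gpnmb and Lgals3, genes of activated phagocytes, had 3.97 ± 2.76 and 2.23 ± 1.07 CPM in untreated and 2.11 ± 0.769 and 2.27 ± 1.18 CPM in miR-124-5p libraries (SD, n = 4). Of the 19 genes of the list tested, 12 lay below 0 without and 14 with the batch.

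Markers of microglia, the main TLR-bearing immune cells of the brain, were low in both groups. Cx3cr1, the fractalkine receptor, had 1.77 ± 0.917 and 1.47 ± 0.655 CPM, and Tmem119 had means of 0.294 and 0.289 CPM. The sum of 7 microglia markers was 23.1 to 36.5 CPM in untreated and 22.3 to 36.2 CPM in miR-124-5p libraries, a range that overlaps throughout. Tlr7 itself had 1.15 ± 0.282 and 1.05 ± 0.216 CPM and Tlr8 0.329 ± 0.193 and 0.255 ± 0.156 CPM (SD, n = 4). Of 31 genes of nucleic acid sensing TLRs and their adaptors, 16 lay below 0 without and 17 with the batch. With the batch, 2 were lower and 2 higher at an unadjusted p under 0.05, as were 3.29% and 1.5% of all genes. Among 36 interferon-stimulated and antiviral genes, 26 lay below 0 without and 27 with the batch, with medians of −0.10 and −0.11. At an unadjusted p under 0.05, 0 and 1 of them were lower, against 1.52% and 3.29% of all genes. Of the inflammatory cytokines, Il1b had 0.151 ± 0.129 and 0.113 ± 0.0313 CPM, Tnf 0.107 ± 0.0471 and 0.2 ± 0.119 CPM and Il6 0.128 ± 0.132 and 0.233 ± 0.138 CPM, levels that rest on few counts. With Il1a, these genes summed to 0.422 to 0.672 CPM in untreated and 0.544 to 0.968 CPM in miR-124-5p libraries, ranges that overlap. The means of this sum were 0.518 and 0.783 CPM. The medians of the IL-1 and TNF family list and of the chemokine list were 0.04 and 0.11 without and −0.08 and −0.02 with the batch.

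Neuronal gene lists had medians close to 0. Of 20 neuronal identity genes, 4 lay below 0 without and 5 with the batch, with medians of 0.06 and 0.04. Of 36 synaptic vesicle and release genes, 9 and 6 lay below 0, with medians of 0.03 and 0.05, and none was lower at an unadjusted p under 0.05 in either fit. Snap25, a core of the release machinery, had 404 ± 12.6 and 408 ± 42.2 CPM, and Gria2, a subunit of AMPA receptors, 543 ± 37.5 and 526 ± 98.9 CPM (SD, n = 4). The list of voltage-gated channels had 12 of 35 genes below 0 without and 1 of 35 with the batch, with medians of 0.04 and 0.10 and 26 of 35 higher in both shared batches, as in 23.2% of all genes, so that its shift appeared with the covariate. Its summed markers were lowest in replicate 1 of miR-124-5p, at 833 CPM against 1121.8 to 1149.9 CPM in replicates 2 to 4. Apoptosis and p53 genes had medians of 0.05 and 0.01, and the integrated stress response 0.09 and −0.00.

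Among genes with a mean of at least 1 CPM and groups that did not overlap, the 10 with the smallest p in each direction were named, and 0 of them passed without a covariate. In the direction of lower levels they were Ccnd1, Dlgap5, Rab31, Ets1, Rrm2, Pclaf, Racgap1, E2f8, Nusap1 and Timeless. Most are cell cycle genes, and Racgap1 and Nusap1 act on the mitotic spindle. E2f8, a repressor of the E2F family, had 1.48, 2.03, 2.33 and 1.97 CPM in untreated and 1.18, 0.833, 0.918 and 0.968 CPM in miR-124-5p libraries. Ets1, a transcription factor of the ETS family, had 6.94 ± 0.298 and 4.82 ± 0.608 CPM, and Rab31, a trafficking GTPase, 142 ± 9.09 and 118 ± 7.51 CPM (SD, n = 4).

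In the direction of higher levels, 109 genes did not overlap between groups (0.564%), and the named ones were Gm32926, Amdhd1, Prdm9, Myh8, Hydin, Pou2f2, Pik3ap1, E330034L11Rik, Gm20036 and Gm42715. Their mean levels in untreated cultures ran from 0.861 CPM for Prdm9 to 8.41 CPM for Pou2f2, and they share no list. Hydin, a gene of motile cilia, had 4.82, 3.68, 4.28 and 4.26 CPM in untreated and 5.20, 6.10, 5.56 and 6.16 CPM in miR-124-5p libraries, with log2 fold changes of 0.45 (standard error 0.146) without and 0.47 (standard error 0.149) with the batch. Gm32926, a predicted gene, had 1.23 ± 0.196 and 1.90 ± 0.134 CPM (SD, n = 4).

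A further list holds 18 genes published for miR-124-5p at 5 d, and 18 of them were below 0 in both fits, with medians of −0.56 and −0.69. At an unadjusted p under 0.05, 12 and 18 of them were lower, against 1.52% and 3.29% of all genes. The list was chosen on samples of this series and is not independent evidence of its direction. It holds only genes that the authors listed as shared with another exposure. As described above, its names matched the libraries labelled Mut.oligo more fully than those labelled miR-124-5p. Of the 18, 4 passed in edgeR with the batch and 9 in DESeq2 with the batch. Libraries labelled Mut.oligo gave medians of −0.70 and −0.69 for the same genes, and 0 genes of all tested passed in a direct test of miR-124-5p against Mut.oligo in either direction, without (0.0% and 0.0%) and with the batch (0.0% and 0.0%), where 325 (1.68%) and 542 (2.8%) genes had an unadjusted p under 0.05. DESeq2 also called 0 in this test, without and with the batch. The Pdgfra level was 10.1 ± 2.81 CPM in the Mut.oligo libraries, against 12.6 ± 7.15 CPM in miR-124-5p (SD, n = 4), and the log2 fold change between them with the batch was −0.07 (standard error 0.139). Kdr had 2.31 ± 0.674 CPM in the Mut.oligo libraries and a log2 fold change of 0.36 (standard error 0.109) in miR-124-5p against it. Mean levels in the Mut.oligo libraries were 3.8 CPM for Pclaf, 0.673 for Tagln, 20.8 for Olig2, 1.61 for Sox10 and 9.1 for Spp1. Against untreated, Mut.oligo had medians of −0.46 without and −0.39 with the batch for mitosis, and −0.40 and −0.34 for the oligodendrocyte lineage. The oligodendrocyte lineage markers summed to 125 to 137 CPM in its libraries. These comparisons share the untreated libraries, and a p that misses the threshold does not show that the exposures act alike.

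Against miR-92a-1-5p, with which the exposure shared all 4 batches, 0 genes passed without a covariate in either direction (0.0% and 0.0%), at 442 (2.29%) with an unadjusted p under 0.05. With the batch, 0 passed as lower (0.0%) and 2 as higher (0.0103%), at 1484 (7.68%) with an unadjusted p under 0.05. These were Olig2, whose log2 fold change was 0.55 (standard error 0.065), and Igf2, a growth factor of the mesenchyme and meninges, at 0.58 (standard error 0.067), both at an adjusted p of 0.0157 (edgeR with Benjamini-Hochberg adjustment). Olig2 had 32, 21, 18.1 and 19.7 CPM in the miR-124-5p and 23.4, 14.1, 11.9 and 12.8 CPM in the miR-92a-1-5p libraries of the same batches, so that it was higher in 4 of 4 batches. Igf2 had 20.3, 33.2, 45.7 and 37.5 CPM against 12.7, 24.6, 30.1 and 23.4 CPM, also higher in 4 of 4. The annotated gene Gm49394 overlaps Igf2. DESeq2 with the batch called 0 genes as lower (0.0%) and 10 as higher (0.0517%), among them Olig1. Both calls of edgeR were lost when replicate 2, 3 or 4 of miR-124-5p or replicate 3 or 4 of miR-92a-1-5p was left out, Olig2 also without replicate 2 of miR-92a-1-5p. When replicate 1 of either group was left out, 10 higher genes and 1 lower gene, Slc7a3, passed. These libraries are the only ones of batch 2 at 5 d. Leaving out either takes both from the comparison with the batch, so this is a single repeat. The mitosis list had a median of −0.48 against untreated in miR-124-5p and −0.65 in miR-92a-1-5p libraries.

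Between 6 h and 5 d, 20425 genes were tested for a difference in the effect of the exposure. No experiment batch is shared between the times. In edgeR, 0 genes passed without a covariate (0.0% in each direction), at 540 (2.64%) with an unadjusted p under 0.05, and 1 gene passed as lower at 5 d with the batch (0.0049%, and 0.0% as higher), at 747 (3.66%). This was Pdgfra, whose effects at 5 d and 6 h differed by −1.44 on the log2 scale (standard error 0.209, adjusted p = 0.0177 with edgeR and Benjamini-Hochberg adjustment). At 6 h, Pdgfra had 39.2, 72.3, 58.8 and 91.1 CPM in untreated and 91.1, 32.4, 78.3 and 62.9 CPM in miR-124-5p libraries, ranges that overlap. Its log2 fold change at 6 h was 0.02 (standard error 0.336) without and −0.08 (standard error 0.107) with the batch. Untreated cultures held 65.4 ± 21.9 CPM of Pdgfra at 6 h and 31.5 ± 5.12 CPM at 5 d, and of Top2a 93.9 ± 22.8 and 31.0 ± 1.08 CPM (SD, n = 4), so that both were lower at 5 d without any exposure.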

How the data were processed

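The authors deposited raw read counts per gene, made with STAR and featureCounts (Subread) on GRCm38 per the labels, from TruSeq Stranded mRNA libraries. The table holds 49671 genes, of which 49412 had a symbol in GENCODE M21. Groups came from the labels. Genes were tested if 3 or more of the 16 libraries of 5 d held 5 or more counts, with edgeR 4.0.16 in R 4.3.3 (TMM, quasi-likelihood test, Benjamini-Hochberg adjustment), without and with the experiment batch, and with DESeq2 1.42.0. CPM are counts scaled to the library total. Standard errors given for edgeR were worked back from the log2 fold change and the F statistic of its test, and not estimated directly. Within-batch differences used a prior of 0.5 counts. The members, gene lists and tests were chosen with earlier results of these data known. Named genes were those past a threshold, the 10 in each direction with the smallest p and no overlap, genes of the authors' list, and list markers. The tests were checked on simulated data. Same-numbered libraries correlated between −0.45 and 0.53 in their deviations from the group means, so that the numbers do not pair them. Promoter windows came from RefSeq (GRCm38.p6).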

Additional observations from a re-analysis of the deposited data

Results flagged for a closer look

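Replicates were compared for a library far from the others in 182 sets of 4 values, and 14 of the sets stood out by Dixon's criterion. Chance alone marks about 1 in 20 sets. Replicate 1 of miR-124-5p accounts for 9 of the 14, 7 as the highest and 2 as the lowest of its group. It was the highest for Pdgfra at 23.2 CPM, Kif22 at 4.18, Kif23 at 4.09, Sox10 at 3.29 and Acta2 at 2.43 CPM, for the summed S phase markers at 135 CPM and for oxidative phosphorylation markers at 1797.4 CPM. It was the lowest for the AMPA, NMDA and kainate receptor markers at 1829.8 CPM and the voltage-gated channel markers at 833 CPM. Untreated replicate 1 was the highest of its group for Tagln at 5.70 CPM and for Acta2 at 3.48 CPM. Untreated replicate 3 was the highest for Timeless at 5.57 CPM, untreated replicate 2 the highest for Foxm1 at 9.37 CPM, and miR-124-5p replicate 2 the lowest for Bmp7 at 5.83 CPM.

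The effect of the exposure on Pdgfra differed between the times, at 5 d minus 6 h −1.44 on the log2 scale with the experiment batch as a covariate.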

How the results depend on the processing

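Against untreated, 0 genes were called without a covariate. As lower, 5 passed with the experiment batch, 16 in DESeq2 with the batch and 3 with only the shared batches, and 1 was higher in DESeq2 with the batch. The replicate block called 0 genes. Leaving out each replicate gave 0 to 21 lower and 0 to 1 higher genes, the largest without miR-124-5p replicate 1. Against miR-92a-1-5p, 2 genes were higher with the batch, 10 in DESeq2 with the batch and 2 with only the shared batches, and leaving out each replicate gave 0 to 1 lower and 0 to 10 higher genes. For the difference between the times, 1 gene was lower with the batch and 1 in DESeq2 with the batch. Of 55 named genes, 54 kept their direction in every alternative run, which were 25 for each gene except Tagln with 24 (it had no value under the filter of 10 counts in every library), and Acta2 turned to 0.13 without untreated replicate 1, where leaving out each replicate gave −1.79 to 0.13. Many named genes were chosen on these libraries by p or by groups that do not overlap, so a kept direction is no independent test. The causes of differences between settings were not tested. RLE, no filter, a filter of 10 counts in every library and only the compared groups also called 0 genes against untreated. The description of seed matches was not run.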

Other observations

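The further gene groups described here had medians from −0.10 to 0.14, where the median of all genes was 0.0. Of 30 collagens, laminins and basement membrane genes, 16 lay below 0 on the log2 scale without a covariate and 24 with the batch. Their medians were −0.02 and −0.10. At an unadjusted p under 0.05, 0 and 5 of them were lower, against 1.52% and 3.29% of all genes. Of 28 BMP ligands and Id response genes, 18 and 17 lay below 0, with medians of −0.03 and −0.04. Id3, an inhibitor of differentiation induced by BMP signals, had 11.2, 8.49, 9.36 and 7.52 CPM in untreated and 4.2, 8.31, 5.92 and 6.45 CPM in miR-124-5p libraries, and the groups overlapped through replicate 2 of miR-124-5p.

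Among 44 nuclear-encoded genes of oxidative phosphorylation, 16 lay below 0 without and 33 with the batch, with medians of 0.04 and −0.02. Of the 44, 40 (90.9%) were lower in both shared batches, as were 35.2% of all genes, although 0 reached an unadjusted p under 0.05 in either fit. A high share on this measure can thus go with a median near 0. Of 33 genes of cholesterol synthesis, 24 and 17 lay below 0, with medians of −0.04 and −0.00. Of 18 complement genes, 4 and 7 lay below 0, with medians of 0.14 and 0.04. Immediate early transcription factors had medians of 0.01 and 0.03 over 22 genes, and axon guidance genes −0.00 and 0.06 over 43 genes.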
